A study of Homo sapiens with 30 samples.

Results

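The comparison set 6 Affymetrix arrays of cells given 5 cGy against 6 arrays of cells given 1 cGy, out of 30 arrays in the series. The arrays were chosen by their labelled dose alone, 3 per dose from each of 2 human lymphoblastoid cell lines, GM15036 and GM15510. The other 18 arrays cover 2.5, 7.5 and 10 cGy in the same lines. Both dose groups were irradiated suspension cultures in MEM with serum, and both received a caesium source, so 1 cGy is a low-dose reference and not an unirradiated control. Biotin-labelled copies were made from the 3′ end of total RNA (Qiagen kit), and the design text adds a T7 amplification. Doses are in cGy on each sample's label but in Gy, with the same figures, in the design text, and the sample labels were followed. How long after irradiation the cells were harvested is not stated in those sources. Whether the 3 arrays of a group stand for separate cultures is not labelled either, so p-values here refer only to array-to-array spread, part or all of which may be technical. The 2 lines are treated as a blocking factor and not as a sample of people. In GM15510 the second array at 5 cGy is labelled 2b.

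Lymphoblastoid lines are B cells made to grow without limit by Epstein-Barr virus, and they carry an active antigen presentation and antibody secretion machinery. Ionising radiation breaks DNA, and in cells with working p53 this leads within hours to more RNA of genes that stop the cell cycle and repair DNA, such as CDKN1A and GADD45A. Proteins for the membrane and for secretion are threaded into the endoplasmic reticulum (ER), where chaperones, disulfide-forming enzymes and a stress pathway that senses unfolded protein handle them.

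The arrays differed in brightness before scaling, and 2 of the 5 cGy arrays stood apart. The unscaled trimmed mean intensity was 57.3 to 76.6 on the 6 arrays at 1 cGy, 47.9 to 54.9 on the GM15036 arrays at 5 cGy, and 19.5, 28.1 and 69.3 on the GM15510 arrays 1, 2b and 3 at 5 cGy. The log2 brightness was lower at 5 cGy by a mean of −0.73 (exact permutation within lines, two-sided p = 0.025, adjusted over 3 measures 0.075, n = 6 against 6). The log2 ratio of 3′ to 5′ signal of the ACTB control, a sign of RNA length, was higher by 0.81 (exact p = 0.05, adjusted 0.075), and that of GAPDH was lower by −0.077 (exact p = 0.295). In GM15036 the ACTB ratio was 4.71, 4.34 and 4.37 at 1 cGy and 5.02, 5.11 and 4.97 at 5 cGy. In GM15510 it was 4.01, 4.04 and 3.18 against 5.52, 5.48 and 3.43. The doses thus did not overlap in GM15036 in brightness or in the ACTB ratio. Leaving out the dim GM15510 arrays does not remove that difference. After scaling, array correlations over tested probe sets were 0.936 to 0.970 within a group, 0.935 to 0.963 between the doses of a line and 0.911 to 0.939 between the lines. The cells carried the B cell markers that the label calls for: 9 of 9 lymphoblastoid markers on the array were measured, with a summed scaled signal of 1645 to 1917 at 1 cGy and 1736 to 2019 at 5 cGy. Of 16 T and NK cell markers 4 passed the filter on low values, of 10 monocyte markers 2, of 4 erythroid markers 1 and of 9 fibroblast markers 4, and none of these was called. Their summed signal was 191 to 238 at 1 cGy and 156 to 264 at 5 cGy for T and NK cells, 37.7 to 60.5 and 43.7 to 92.0 for monocytes, 12 to 42.3 and 14.9 to 45.9 for erythroid cells, and 218 to 316 and 236 to 299 for fibroblasts. The lowest member of each list, NKG7, LYZ, ALAS2 and LUM, was near 0, with median scaled signals of 1.16, 0.643, 0.792 and 0.374. The highest members, LCK, VCAN, HBB and VIM, were at 101, 19.0, 13.5 and 194. LCK and VIM were thus above CD70, the lowest B cell marker (36.4), and below PAX5, the highest (522).

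Of 13329 probe sets tested, 356 differed between 5 and 1 cGy across the lines (limma, Benjamini-Hochberg adjusted p under 0.05), which is 2.67% of those tested. At 5 cGy 191 were higher (1.43%) and 165 lower (1.24%). By 1 probe set per gene, 92 of 7715 genes were higher (1.19%) and 108 lower (1.4%). The change had the same sign in both lines for 330 of the 356, 177 higher and 153 lower, and opposite signs for 26. Among all tested probe sets the signs matched for 52.0%, but a change averaged over 2 lines passes the test more easily when the lines share a sign, so the 92.7% among called probe sets is partly fixed by the test. Arrays at 5 cGy lay wholly above those at 1 cGy in each line for 184 probe sets (1.38%) and wholly below in each line for 199 (1.49%). Of these, 88 and 82 were also called across the lines.

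The changes were larger in GM15510 for 269 of the 356. The same share over all tested probe sets was not counted, so whether this is particular to the called ones was not tested. Tested within a line, 19 probe sets passed in GM15036 (0.143%; 7 higher, 12 lower) and 559 in GM15510 (4.19%; 277 higher, 282 lower). The GM15036 count was 2 without its 1 cGy array b, 12 without c, 4, 5 and 6 without its 5 cGy arrays a, b and c, and 32 without GM15510 5 cGy array 1. The GM15510 count was 306 without its 1 cGy array 1, 285 without 3, 322 without its 5 cGy array 1 and 365 without 2b. With the dim arrays 1 and 2b both left out, 117 were called in GM15510, 34 in GM15036 and 136 across the lines. The pooled count ranged from 205 without GM15036 1 cGy array b to 386 without GM15510 5 cGy array 3. It was 220 without GM15036 5 cGy array c, and 232 and 212 without GM15510 1 cGy arrays 1 and 3.

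**Figure D1:**
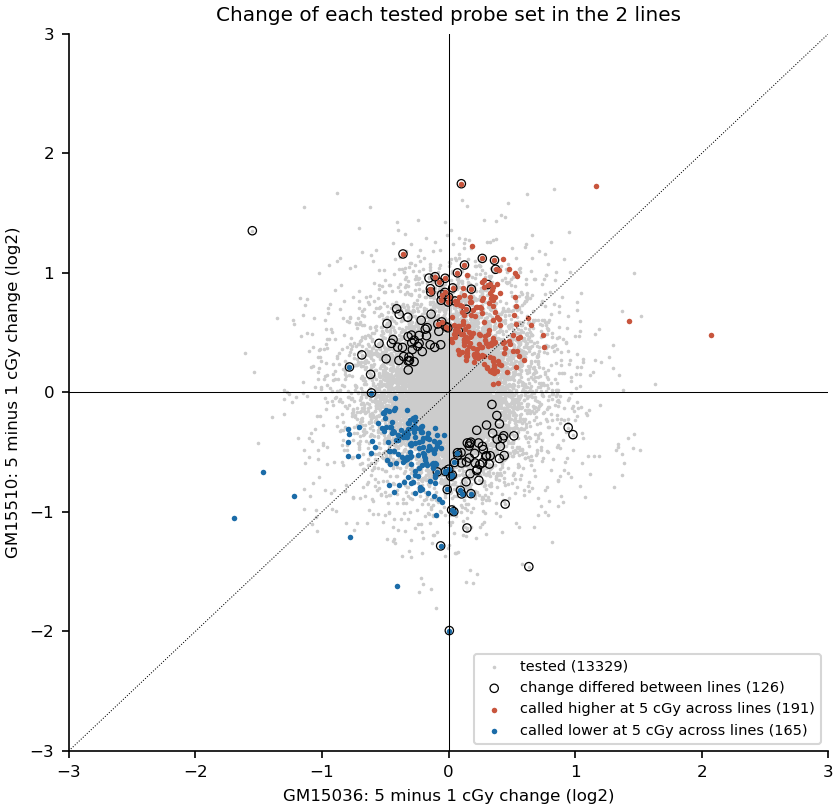
Change from 1 to 5 cGy of each of 13329 tested probe sets in GM15036 (horizontal, log2) against GM15510 (vertical, log2), with those called higher (191, red) or lower (165, blue) across lines and those whose change differed between the lines (126, circles); 1 probe set lies outside the axes. Of the 356 called points, 330 sit in the quadrants where the signs match and 269 are farther from 0 in GM15510.

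Scaling moved the balance of directions. With the scaling used, 53.7% of calls were higher, and with quantile normalization 174 of 328. When each array was instead centred on its median, 2.50% of 919 calls were higher (23 against 896), and centring after scaling gave 16.8% of 322. Under that first centring the median change of all tested probe sets was −0.178 (−0.061 in GM15036 and −0.293 in GM15510), against −0.0078 with the scaling used. Each higher gene below is therefore stated relative to the trimmed mean of its array. Of 40 named probe sets called higher and followed through the settings, 34 did not pass when arrays were centred on their medians, 3 of them with the sign turned, and the 6 that passed were MAP4, CYP27A1, ZNF611, FBXW12, ZNF721 and RNF43. All 32 called lower and followed likewise passed.

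Tested in each line alone, 4 genes passed in both with the same sign. They were EMC7 and ERP44, higher at 5 cGy, and TAOK3 and RPS24, lower. EMC7 is a subunit of the ER membrane protein complex, which inserts membrane helices. ERP44 is an ER disulfide exchange protein that retains cargo in the early secretory path. TAOK3 is a kinase of the Ste20 family in stress MAP kinase signalling, and RPS24 a protein of the small ribosomal subunit. Their p-values across lines were the 4 smallest within a restricted group of probe sets. That group carries 1 gene symbol, has the same sign and no overlap in either line, and is not of the cross-hybridising design described below. The change across lines is the mean of both lines' changes, so this ranking is no separate evidence. A further probe set with no single gene name passed in both lines with opposite signs.

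The 250 bases before the gene start are shown for these 4 genes, from RefSeq's promoter windows on GRCh38.p14 read 5′ to 3′ on the gene's strand, with the letters CCAAT on either strand in capitals, since this box is bound by NF-Y. The windows are EMC7 at chr15:34101863-34102112, minus strand, ERP44 at chr9:100099001-100099250, minus strand, TAOK3 at chr12:118359706-118359955, minus strand and RPS24 at chr10:78033613-78033862, plus strand. Of 2 TAOK3 starts in the table the more upstream one is shown.
EMC7: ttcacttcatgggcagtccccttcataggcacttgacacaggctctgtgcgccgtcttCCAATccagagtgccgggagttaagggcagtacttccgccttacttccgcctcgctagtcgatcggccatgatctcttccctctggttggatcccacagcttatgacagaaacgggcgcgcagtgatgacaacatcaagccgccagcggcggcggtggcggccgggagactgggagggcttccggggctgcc
ERP44: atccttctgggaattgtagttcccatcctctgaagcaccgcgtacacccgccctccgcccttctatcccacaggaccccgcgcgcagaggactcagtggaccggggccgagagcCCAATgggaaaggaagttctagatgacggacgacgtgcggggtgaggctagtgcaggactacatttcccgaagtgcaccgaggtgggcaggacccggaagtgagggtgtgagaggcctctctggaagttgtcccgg
TAOK3: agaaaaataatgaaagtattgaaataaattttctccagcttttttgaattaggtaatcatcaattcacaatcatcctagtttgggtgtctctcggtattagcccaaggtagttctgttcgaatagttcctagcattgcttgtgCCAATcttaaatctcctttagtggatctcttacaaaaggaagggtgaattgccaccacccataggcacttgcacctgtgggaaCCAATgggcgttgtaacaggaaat
RPS24: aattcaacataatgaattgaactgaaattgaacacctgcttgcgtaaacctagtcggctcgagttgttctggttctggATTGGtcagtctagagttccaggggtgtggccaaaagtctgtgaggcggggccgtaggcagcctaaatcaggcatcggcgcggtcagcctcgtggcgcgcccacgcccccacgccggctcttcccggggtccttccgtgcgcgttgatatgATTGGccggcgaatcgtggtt
Each window holds CCAAT, 1 match in EMC7 and ERP44 and 2 in TAOK3 and RPS24. The letters occur in 32.0% of all 35116 windows of that length, in 36.3% of 6692 windows of tested genes, in 43.5% of 115 genes called higher and in 41.9% of 117 called lower (genes with a window and any called probe set, so that these numbers differ from the 92 and 108 counted by 1 probe set per gene). A GC box, GGGCGG on either strand, occurs in 65.0%, 68.7% and 66.7% of the same 3 gene groups, and TATAAA in 5.99%, 6.09% and 3.42%. A match describes letters in the window and not a bound site. Of 8101 symbols tested, 6692 had a window in the table.

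EMC7 read 9.31, 9.20 and 9.12 log2 units on the 1 cGy arrays of GM15036 and 9.79, 9.65 and 9.63 on its 5 cGy arrays. In GM15510 it read 9.09, 9.16 and 9.12 at 1 cGy and 9.67, 9.41 and 9.50 at 5 cGy. Every 5 cGy array lay above every 1 cGy array, across both lines. The change was 0.44 ± 0.057 (SE) across lines, a 1.36-fold difference on the scale of log2 scaled signal plus 4 (adjusted p = 1.38e-05), with 0.48 in GM15036 and 0.40 in GM15510. It passed without each of the 12 arrays and missed in 1 of 20 other settings, median centring (0.19, adjusted p = 0.311).

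ERP44 read 9.62, 9.30 and 9.28 at 1 cGy and 10.02, 9.97 and 9.92 at 5 cGy in GM15036. In GM15510 it read 9.71, 9.92 and 9.56 against 10.27, 10.31 and 10.01. The doses did not overlap within either line, and the change of 0.52 ± 0.072 (SE; 0.57 and 0.47 by line) had an adjusted p of 4.18e-05. Median centring left 0.26 (adjusted p = 0.139). Its other 2 probe sets, which were dimmer, read 0.15 and −0.41 and did not pass (adjusted p = 0.702 and 0.492).

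TAOK3 read 8.37, 8.23 and 8.22 at 1 cGy and 7.89, 7.78 and 7.71 at 5 cGy in GM15036. In GM15510 it read 8.79, 8.81 and 8.91 against 8.41, 8.46 and 8.40. The doses were apart within each line, while the GM15510 arrays at 5 cGy were above the GM15036 arrays at 1 cGy. The change was −0.45 ± 0.057 (SE; adjusted p = 1.15e-05), −0.48 in GM15036 and −0.42 in GM15510. A second, dimmer TAOK3 probe set read 0.21 and did not pass (adjusted p = 0.723).

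RPS24 read 9.58, 9.59 and 9.39 at 1 cGy and 9.05, 8.98 and 9.22 at 5 cGy in GM15036. In GM15510 it read 9.93, 9.97 and 9.87 against 9.58, 9.63 and 9.56. Its change was −0.38 ± 0.056 (SE; adjusted p = 6.97e-05), −0.44 and −0.33 by line, with no overlap of doses in either. TAOK3 and RPS24 passed without each array and in all 20 other settings.

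Among all 72 named probe sets called for 5 against 1 cGy, 44 passed without each of the 12 arrays, and 12 passed in addition under every other setting run for them. These 12 were TAOK3, RPS24, LITAF, SERP1, GNG5, ZBTB18, SNRPE, IER3IP1 and DDX21, lower at 5 cGy, and ZNF611, FBXW12 and ZNF721, higher. Median centring was among the settings, and under it the median change of all tested probe sets was −0.178. It passed all 32 followed as lower and 6 of 40 followed as higher. The split of the 12 by direction is therefore partly fixed by that setting.

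LITAF, an endosomal membrane protein first cloned as a lipopolysaccharide-induced regulator of TNF, read 8.29, 8.30 and 8.06 at 1 cGy and 7.87, 7.67 and 7.72 at 5 cGy in GM15036, and 8.40, 8.57 and 8.20 against 7.98, 7.74 and 7.98 in GM15510. The doses were apart in each line by a similar amount, −0.46 and −0.49 (across lines −0.48 ± 0.074, SE, adjusted p = 2.01e-04). A second, dimmer LITAF probe set read −0.0022 (adjusted p = 0.998).
ZBTB18, a zinc finger repressor of transcription, read 7.54, 7.66 and 7.46 against 7.05, 7.15 and 6.98 in GM15036, and 7.49, 7.30 and 7.62 against 7.01, 6.80 and 6.90 in GM15510. It fell by 0.49 in GM15036 and by 0.57 in GM15510 (adjusted p across lines 1.5e-04). GNG5, a gamma subunit of heterotrimeric G proteins, fell by 0.55 ± 0.082 (SE; adjusted p = 1.14e-04), by 0.35 in GM15036 and 0.75 in GM15510. SNRPE, a core protein of the spliceosomal particles, fell by 0.61 ± 0.11 (SE; adjusted p = 0.00189), by 0.80 in GM15036 and 0.41 in GM15510, while its other probe set read −0.11 (adjusted p = 0.712). DDX21, a nucleolar RNA helicase, fell by 0.29 (adjusted p = 0.00444) and its doses overlapped in GM15036, where array c at 5 cGy (10.11) was above array a at 1 cGy (10.10).

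ALOX5, the 5-lipoxygenase of leukotriene synthesis, read 8.79, 8.98 and 8.78 against 9.14, 9.15 and 9.14 in GM15036, and 8.55, 8.55 and 8.59 against 8.84, 9.13 and 9.13 in GM15510. It was 0.38 higher across lines (adjusted p = 4.58e-04), with no overlap of doses in either line, while a dimmer probe set read 0.13 (adjusted p = 0.88).

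**Figure D2:**
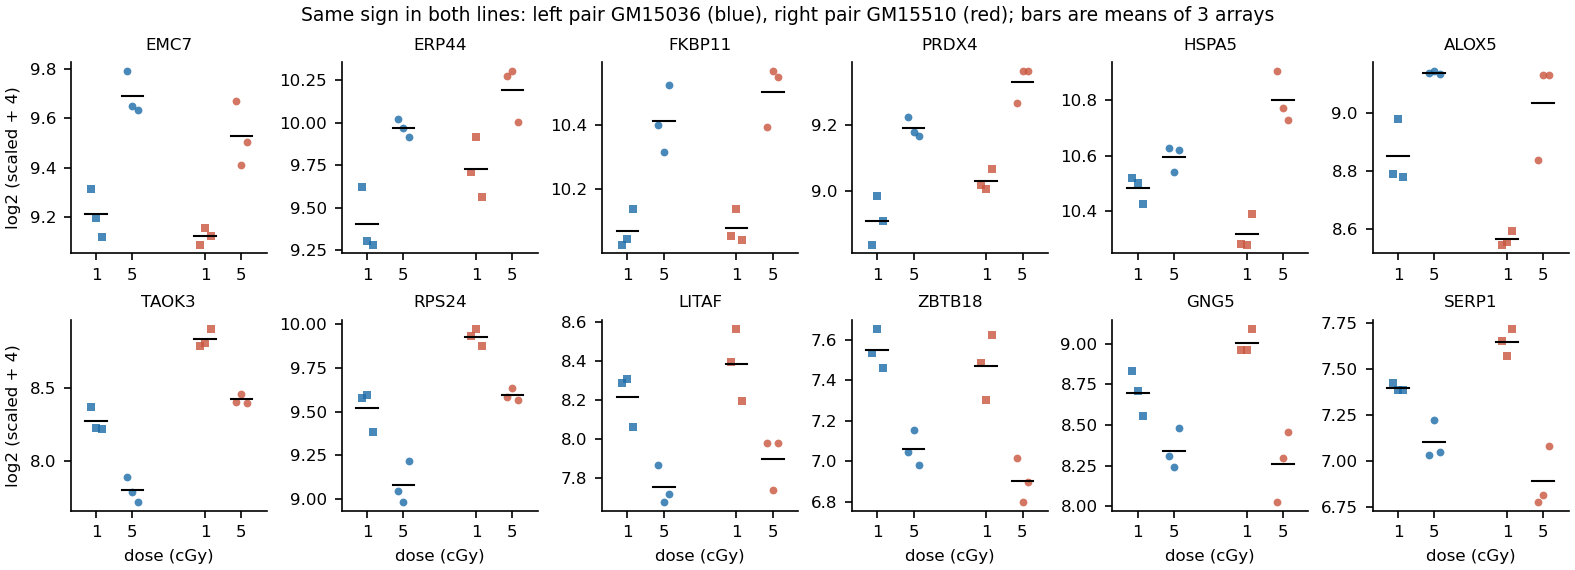
Log2 scaled signal plus 4 on each array (points, n = 3 per group) and the group mean (bars) at 1 and 5 cGy for 12 genes that changed with the same sign in both lines, 6 higher (top) and 6 lower (bottom); each panel has its own vertical range. In every panel the 5 cGy points of a line do not overlap its 1 cGy points, which the naming rules required of most of these genes.

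Of the other named genes whose products work in the ER, 5 are described here. They are taken singly, since they come from different naming rules and some were picked after their values were seen. Others, among them TAP1 and STT3A, are given further below. HSPA5, the main ER chaperone BiP, was higher, as were PRDX4, an ER peroxiredoxin, and FKBP11, a proline isomerase of secretory cells. SERP1, which protects membrane proteins during translocation under ER stress, and IER3IP1, a small ER membrane protein needed for secretion, were lower. The promoter windows of HSPA5 and SERP1 are shown because both hold the ER stress response element, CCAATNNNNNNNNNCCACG on either strand, with CCAAT elsewhere also in capitals, and yet the 2 genes changed in opposite directions. They lie at chr9:125241344-125241593, minus strand for HSPA5 and chr3:150546497-150546746, minus strand for SERP1 (GRCh38.p14).
HSPA5: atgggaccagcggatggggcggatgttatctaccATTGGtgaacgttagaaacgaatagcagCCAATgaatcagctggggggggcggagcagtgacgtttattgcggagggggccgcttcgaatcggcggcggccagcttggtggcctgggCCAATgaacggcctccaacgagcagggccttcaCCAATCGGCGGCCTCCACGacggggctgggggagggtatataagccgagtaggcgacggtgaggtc
SERP1: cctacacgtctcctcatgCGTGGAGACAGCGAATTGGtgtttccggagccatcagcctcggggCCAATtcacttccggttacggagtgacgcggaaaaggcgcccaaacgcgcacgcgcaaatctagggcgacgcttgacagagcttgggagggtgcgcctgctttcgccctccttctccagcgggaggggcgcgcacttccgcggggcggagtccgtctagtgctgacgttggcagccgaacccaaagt
The element lies 48 to 66 bases before the start of HSPA5 and 214 to 232 bases before that of SERP1. It occurs in 0.074% of all windows and in 9 of 6692 windows of tested genes, of which 1 belongs to the genes called higher and 1 to those called lower.

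HSPA5 read 10.52, 10.50 and 10.43 at 1 cGy and 10.63, 10.54 and 10.62 at 5 cGy in GM15036. In GM15510 it read 10.28, 10.28 and 10.39 against 10.91, 10.77 and 10.73. The doses were just apart in GM15036 and far apart in GM15510. The change was 0.11 in GM15036, where it did not pass (adjusted p = 0.832), and 0.48 in GM15510, and across lines it was 0.30 ± 0.058 (SE; adjusted p = 0.00289). It missed the threshold in 6 of 20 other settings, among them median centring (0.045, adjusted p = 0.835) and the omission of the dim GM15510 5 cGy arrays (0.26, adjusted p = 0.0557).

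SERP1 read 7.42, 7.38 and 7.39 at 1 cGy and 7.03, 7.22 and 7.05 at 5 cGy in GM15036. In GM15510 it read 7.65, 7.57 and 7.72 against 6.77, 6.81 and 7.08. The change was −0.53 ± 0.080 (SE; adjusted p = 1.33e-04), with a second probe set of the gene also called (−0.44, adjusted p = 0.00661) and another at −0.22 (adjusted p = 0.116). IER3IP1 read 7.24, 7.29 and 7.05 against 6.40, 6.67 and 6.77 in GM15036, and 7.55, 7.35 and 7.48 against 7.13, 6.92 and 6.96 in GM15510. Its change was −0.52 (adjusted p = 0.0014), −0.58 and −0.46 by line.

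PRDX4 was 0.29 higher across lines (adjusted p = 0.00133), 0.28 in GM15036 and 0.30 in GM15510, and FKBP11 was 0.38 higher (adjusted p = 0.0014), 0.34 and 0.42. Neither passed when arrays were centred on their medians (0.041 and 0.13). A dimmer FKBP11 probe set read −0.14 (adjusted p = 0.784). Of 39 tested genes of the unfolded protein and amino acid response, 2 rose, HSPA5 and VEGFA, and 0 fell, where 1.19% of all genes rose and 1.4% fell. Centred on array medians 0 rose and 2 fell. VEGFA (0.32, adjusted p = 0.0379) passed without GM15036 5 cGy array c or GM15510 5 cGy array 3 and in no other of the 12 removals. Of 47 genes of membrane traffic, EMC7 and COPB1 rose and 0 fell, beside the same 1.19% and 1.4%. COPB1 (0.21, adjusted p = 0.049) passed only without GM15510 5 cGy array 1, and it was at −0.038 under median centring.

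The largest changes with the same sign and no overlap in either line came from rather dim probe sets or from probe sets of cross-hybridising design. Of the 12 highest, 7 carry the suffix _x_at, which marks probes that also match other transcripts. CYP27A1, the sterol 27-hydroxylase of bile acid synthesis, changed most. It read 3.52, 3.04 and 2.43 at 1 cGy and 5.03, 4.99 and 5.17 at 5 cGy in GM15036, and 3.05, 2.87 and 3.01 against 3.18, 3.99 and 3.20 in GM15510. The change was 1.27 ± 0.29 (SE; adjusted p = 0.012), 2.07 in GM15036 and 0.48 in GM15510, where the doses were nearly touching. It passed without each single array and in 14 of 19 other settings. Those it missed included brightness, the ACTB ratio and the Alu control as a covariate (adjusted p = 0.211, 0.127 and 0.241). The omission of both dim GM15510 5 cGy arrays was another. The 1 cGy readings of CYP27A1 were low, so the size of its change depends on the 4 added before the log.
RNF43, a ubiquitin ligase that removes Wnt receptors, was 1.01 higher (adjusted p = 0.0235), and lost its call without any of 6 arrays, namely GM15036 1 cGy b and c, GM15036 5 cGy b and c, GM15510 1 cGy 1 and GM15510 5 cGy 2b (adjusted p up to 0.0742). MAP4, a microtubule-binding protein, was 0.77 higher (adjusted p = 0.0161) and lost it without GM15036 1 cGy c (0.0503), GM15510 1 cGy 1 (0.0558) or GM15510 5 cGy 2b (0.0624). The other 5 MAP4 probe sets did not pass (−0.42 to 0.13). BTN3A3, a butyrophilin, was 0.61 higher (adjusted p = 0.0102) and NOTCH2NLA 0.58 (adjusted p = 0.0146), and both passed without each array.

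The 7 cross-hybridising ones were ZNF611 (0.76), FBXW12 (0.70), MYO1C (0.66), ZNF721 (0.65), POLR1B (0.62), FGFR1 (0.61) and ZNF160 (0.58), all passing without each array. ZNF611, a zinc finger protein, shared with FBXW12 the smallest adjusted p of the named genes (1.33e-06), and read 8.62, 8.62 and 8.78 against 9.12, 9.21 and 9.25 in GM15036, and 7.85, 7.84 and 7.71 against 9.13, 8.70 and 8.55 in GM15510. Such probe sets were 12.5% of those tested (1665), 37.2% of those called higher (71 of 191) and 13.3% of those called lower (22 of 165). Without them, 251 were called, 115 of them higher. For MYO1C a second probe set of ordinary design read −0.11 (adjusted p = 0.776), so the gene name attached to a cross-hybridising value is uncertain.

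The Alu control probe set, which reads transcripts that carry the Alu repeat, moved in the same direction. On the log2 scale it read 13.04, 12.88 and 12.79 at 1 cGy and 12.95, 13.09 and 13.10 at 5 cGy in GM15036, and 12.34, 12.59 and 12.26 against 13.79, 12.94 and 12.72 in GM15510. The mean difference was 0.45 (exact permutation within lines, two-sided p = 0.01, the smallest possible being 0.005; test added after the values were seen). The median of the 71 cross-hybridising probe sets called higher was 9.0, 8.95 and 8.96 against 9.22, 9.32 and 9.27 in GM15036, and 8.42, 8.34 and 8.21 against 9.12, 9.06 and 9.04 in GM15510. These 71 were chosen for being higher, so their rise is a description. With the Alu control as a covariate 119 probe sets were called, 63 higher and 56 lower. What part the Alu signal has in single genes was not tested.

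**Figure D3:**
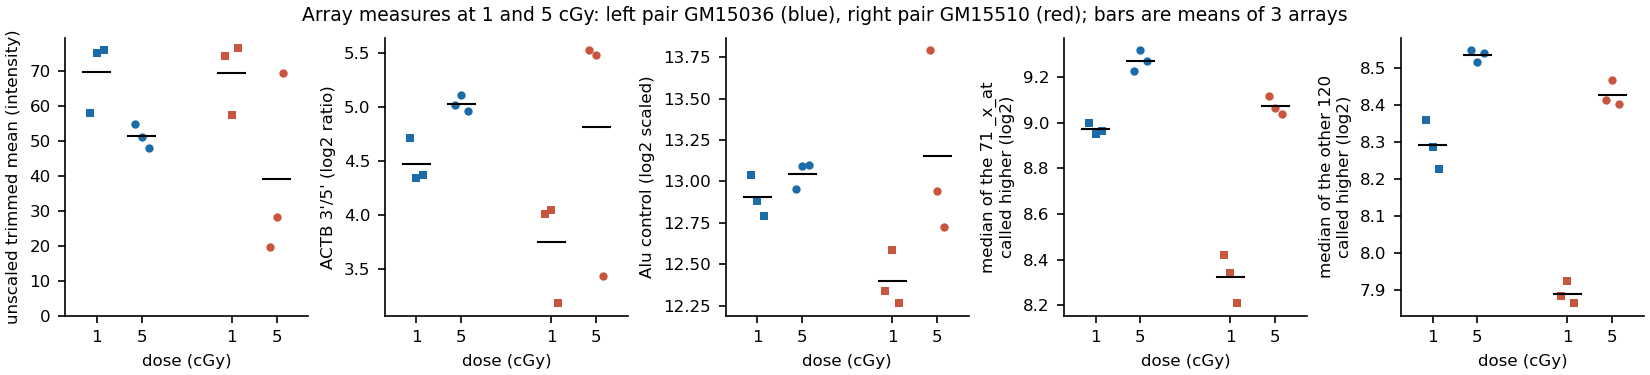
Per-array values (points, n = 3 per group) and group means (bars) at 1 and 5 cGy of the unscaled trimmed mean intensity, the log2 ratio of 3′ to 5′ ACTB signal, the log2 Alu control and the median log2 level of the 71 cross-hybridising and 120 other probe sets called higher. GM15510 arrays 1 and 2b at 5 cGy are the dimmest (19.5 and 28.1) and have the highest ACTB ratios (5.52 and 5.48). In GM15036 the doses do not overlap in brightness or in the ACTB ratio.

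Of the 12 lowest, DND1, an RNA-binding protein of germ cells, fell most (−1.04, adjusted p = 0.0347), followed by NET1 (−0.67), GOLGB1, the Golgi tether giantin (−0.62), SNRPE, CCDC28A (−0.56), GNG5, ZBTB18, SERP1, RABGAP1, a GTPase-activating protein for Rab proteins (−0.52), IER3IP1, CDC42SE1 (−0.51) and CSNK2A1, a catalytic subunit of casein kinase 2 (−0.51). DND1 lost its call without any of GM15036 1 cGy b or c, GM15036 5 cGy a, GM15510 1 cGy 1 or 2 and GM15510 5 cGy 2b (adjusted p up to 0.132). NET1 lost it without GM15036 1 cGy b (0.0567), GM15036 5 cGy c (0.0629), GM15510 1 cGy 1 (0.0535) or GM15510 5 cGy 2b (0.0589), and CCDC28A without GM15036 5 cGy a (0.0561). GOLGB1 passed only without GM15510 5 cGy 1, and CSNK2A1 only without GM15036 5 cGy a or c. RABGAP1 and CDC42SE1, the latter read by a cross-hybridising probe set, passed without each array.

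Of 41 tested genes of DNA damage signalling and repair, 0 rose and 5 fell, against 1.19% and 1.4% of all genes, with a median change of 0.0032 against −0.012 for all genes. MSH6, a mismatch recognition protein, read 8.88, 8.72 and 8.70 against 8.71, 8.73 and 8.49 in GM15036, where the doses overlapped, and 9.33, 9.36 and 9.42 against 8.75, 8.78 and 8.80 in GM15510, where they were far apart. Its change was −0.36 ± 0.073 (SE; adjusted p = 0.00466), −0.12 and −0.60 by line, and the difference between the lines did not pass (adjusted p = 0.137). PRKDC, the catalytic subunit of DNA-dependent protein kinase, fell by 0.36 (adjusted p = 0.00982), by 0.12 and 0.61 by line. APEX1, the main abasic site endonuclease, fell by 0.38 (adjusted p = 0.00741), by 0.18 and 0.59.
TOPBP1, an activator of the ATR kinase, fell by 0.28 (adjusted p = 0.0204) and missed without GM15036 1 cGy c (0.0512), GM15036 5 cGy c (0.0654) or GM15510 1 cGy 3 (0.0652). H2AX, the histone marked at DNA breaks, fell by 0.36 (adjusted p = 0.043) and passed only without GM15036 1 cGy c, GM15510 1 cGy 1 or GM15510 5 cGy 1. The count was 3 to 5 over the 12 removals of an array, 5 under both centrings, 4 with quantile normalization, and 0 with the brightness or ACTB covariate or without the dim GM15510 5 cGy arrays.

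Of the 23 tested p53 targets 1 rose, TNFRSF10B, a death receptor for TRAIL, and 0 fell, a single call beside 1.19% and 1.4% of all genes. It was 0.23 higher (adjusted p = 0.0379; −0.020 under median centring), and passed only without GM15036 1 cGy a, GM15036 5 cGy c, GM15510 1 cGy 2 or GM15510 5 cGy 3. Of 20 radiation and stress genes followed whatever their test, 15 were tested, 9 higher and 6 lower, and 0 passed (limma; 2 at an unadjusted p under 0.05, which 1910 of all 13329 probe sets had). CDKN1A, the p21 inhibitor of the cell cycle, read 7.69, 7.55 and 7.26 against 7.62, 7.76 and 7.63 in GM15036, and 6.98, 7.39 and 7.27 against 7.84, 7.18 and 7.33 in GM15510. The doses overlapped in both lines and the change was 0.20 ± 0.10 (SE; adjusted p = 0.351). GADD45A, a growth arrest protein, read 6.42, 6.24 and 6.06 against 6.50, 6.78 and 6.66 in GM15036, and 5.05, 5.38 and 5.75 against 6.22, 5.68 and 6.11 in GM15510.
Its doses were apart in GM15036 and overlapped in GM15510, and the change of 0.51 ± 0.17 (SE) did not pass (adjusted p = 0.116). EGR1, an immediate-early transcription factor, was at −0.37 (adjusted p = 0.212), ATM, the kinase that senses breaks, at 0.26 (0.39) and MDM2, the p53 ligase, at 0.13 (0.81). The change was 0.11 for DDIT3, 0.10 for DDB2, 0.13 for XPC, 0.033 for PCNA, −0.17 for CHEK1 and −0.0057 for MYC, and the adjusted p was 0.586 or more for each. BBC3 and FDXR had no probe set with that symbol alone, and PHLDA3 and FOS were below the filter.

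Of 26 antigen presentation genes 4 rose and 0 fell, with a median of 0.069, against 1.19%, 1.4% and −0.012 for all genes. TAP1, which pumps peptides into the ER, read 9.40, 9.19 and 9.08 against 9.65, 9.59 and 9.61 in GM15036, and 8.79, 9.02 and 8.91 against 9.18, 9.13 and 9.11 in GM15510. The doses did not overlap in either line and the change was 0.32 ± 0.073 (SE; adjusted p = 0.0127). HLA-DPA1, a class II chain, was 0.44 higher (adjusted p = 0.00901; 0.54 and 0.34 by line), and HLA-DRB1, read by a cross-hybridising probe set, 0.33 higher (adjusted p = 0.00832). HLA-F, a class I-like molecule, was 0.42 higher (adjusted p = 0.0434), and passed only without GM15036 1 cGy a or GM15510 5 cGy 2b. The count held at 3 to 4 over the 12 removals, but the direction of the list did not hold under other scalings. Quantile normalization gave 2 higher and 1 lower, either centring 0 higher and 1 lower, and 0 were called without the dim GM15510 5 cGy arrays or with the brightness or ACTB covariate. HLA genes are near-identical copies, so their signals can mix.

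Of 29 B cell identity and receptor genes 2 rose and 2 fell (1.19% and 1.4% of all genes). MS4A1, the surface marker CD20, was 0.29 higher (adjusted p = 0.0174; a second probe set 0.40, adjusted p = 0.00539), both cross-hybridising. PAX5, the B lineage factor, was 0.28 higher (adjusted p = 0.03) and passed only without GM15036 1 cGy b, GM15036 5 cGy a or c, or GM15510 5 cGy 1 or 2b. LYN, a kinase of the B cell receptor, fell by 0.55 (adjusted p = 0.0135) and missed without GM15036 5 cGy c (0.063). SYK, the next kinase in that chain, was at −0.34 (adjusted p = 0.049) and passed only without GM15036 1 cGy c or GM15510 5 cGy 2b. Under both centrings 0 of the 29 were higher, with 4 and 2 lower.

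Among 50 genes of the cytosolic ribosome 3 passed as higher and 4 as lower, against 1.19% and 1.4% of all genes. RPL10A (0.36, adjusted p = 0.00804) and RPL3 (0.35, adjusted p = 0.00982, cross-hybridising) were higher and passed without each array. RPL10A passed in 14 of 20 other settings and RPL3 in 11 of 19. RPS19 was higher (0.23, adjusted p = 0.0472, cross-hybridising) and passed only without GM15036 1 cGy a or GM15510 5 cGy 1. RPS24, RPS27 (−0.31, adjusted p = 0.00166), RPL23A (−0.35, adjusted p = 0.00444, cross-hybridising) and RPL22 (−0.25, adjusted p = 0.021) were lower. RPL22 missed without GM15036 1 cGy b, GM15036 5 cGy c, GM15510 1 cGy 3 or GM15510 5 cGy 2b (adjusted p up to 0.0643), and of its 4 other probe sets 1 was called higher (0.24, adjusted p = 0.0322, cross-hybridising), so its direction is not settled. The list median was −0.090 in GM15036 and 0.105 in GM15510. Quantile normalization gave 2 higher and 9 lower, and median centring 0 and 9. Of 45 mitochondrial ribosomal proteins 1 rose, MRPL22 (0.31, adjusted p = 0.049, passing only without GM15036 5 cGy b or GM15510 5 cGy 1), and 0 fell, with a median of −0.11 (all genes −0.012).

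Of 49 splicing factors 3 rose and 2 fell, where 1.19% and 1.4% of all genes did. U2AF1, which reads the 3′ splice site, read 9.87, 9.64 and 9.50 against 9.68, 9.58 and 9.75 in GM15036, and 8.76, 8.64 and 8.78 against 9.55, 9.52 and 9.51 in GM15510. The doses overlapped in GM15036 and were far apart in GM15510. Its change across lines was 0.40 (adjusted p = 0.00153), and the lines differed (adjusted p = 0.0041). HNRNPH3 was 0.39 higher by its cross-hybridising probe set (adjusted p = 0.00741) and 0.52 by another (adjusted p = 1.46e-04), while HNRNPA2B1 was 0.29 higher (adjusted p = 0.0326) and passed only without GM15036 1 cGy a, GM15510 1 cGy 2, or GM15510 5 cGy 2b or 3. SNRPE and SRSF4 (−0.38, adjusted p = 0.008) were lower. Centred on array medians 0 of the list were higher and 8 lower.

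Of 23 sterol and fatty acid genes 3 rose and 0 fell (all genes 1.19% and 1.4%), and 1 rose and 1 fell when arrays were centred on their medians. Besides CYP27A1, EBP, an isomerase of cholesterol synthesis, was 0.48 higher (adjusted p = 0.00202; 0.17 in GM15036 and 0.80 in GM15510; a second probe set 0.43, adjusted p = 0.0157). FDPS, which makes farnesyl diphosphate, was 0.26 higher (adjusted p = 0.0239; 0.041 and 0.49 by line), and missed without any of GM15036 1 cGy c, GM15036 5 cGy a or b, GM15510 1 cGy 1 or 2, or GM15510 5 cGy 1 (adjusted p up to 0.0979). JUND, a subunit of the AP-1 factor, was the 1 immediate-early gene of 21 to pass, lower by −0.37 (adjusted p = 0.00444) with both lines apart. Other lists held 1 to 4 called members each, to be read against 1.19% of all genes higher and 1.4% lower, and under median centring none of these other lists had a member called higher. Of 35 interferon-stimulated genes TAP1 and ISG15 rose (ISG15 0.37, adjusted p = 0.0226, lost in 6 of 12 removals), of 23 antioxidant and iron genes PRDX4 and TFRC rose (TFRC 0.29, adjusted p = 0.0452, lost in 10) and SOD1, the cytosolic superoxide dismutase, fell by 0.29 (adjusted p = 0.0186, lost in 4). Of 23 chaperones HSP90AA1, the inducible cytosolic HSP90, rose by 0.25 (adjusted p = 0.0295, lost in 8), with 2 further probe sets called (0.28 and 0.34), but it was at −0.0041 under median centring. Of 29 nucleolar genes POLR1B and TSR1 rose, both read by cross-hybridising probe sets (0.62 and 0.52; the other TSR1 probe sets −0.20 and −0.10), and DDX21 and RRS1 (−0.26, adjusted p = 0.0232, lost in 6) fell.
Of 45 translation factors and tRNA synthetases 0 rose, and EIF4B (−0.35, adjusted p = 0.0134, lost in 2) and RARS1 (−0.49, adjusted p = 0.0413, lost in 9) fell. Of 39 genes of DNA replication ORC6, an origin recognition subunit read by a cross-hybridising probe set, rose by 0.32 (adjusted p = 0.01). It passed without each array but in only 11 of 19 other settings. Of 39 mitotic genes NEK2, a centrosome kinase, fell by 0.37 (adjusted p = 0.0232, lost in 5). Of 10 histone genes H1-2 rose (0.38, adjusted p = 0.0211, lost in 4) and H2AX fell. The lists of 26 apoptosis and 35 glycolysis and hypoxia genes held TNFRSF10B and VEGFA as their 1 called member each.

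The lists of oxidative phosphorylation (58 genes), proteasome (36), NF-kB (28), chemokines and receptors (30) and plasma cell genes (13) held 0 called members by limma, with 5 higher and 9 lower, 3 and 2, 4 and 3, 6 and 2, and 3 and 0 members at an unadjusted p under 0.05, against 1910 of all 13329 probe sets.

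The change itself differed between the lines for 126 probe sets (0.945%; 1453 at an unadjusted p under 0.05). Of these, 108 had opposite signs and 18 the same sign, and 100 were larger in GM15510, a share not counted over all tested probe sets. The count was 41 to 165 when an array was left out, and 34 without the dim GM15510 5 cGy arrays. It was also below 126 by over 1.5 times without GM15036 1 cGy a (73) or b (56), GM15036 5 cGy a (51), b (50) or c (81), GM15510 1 cGy 1 (41), 2 (79) or 3 (79), and GM15510 5 cGy 2b (77). The 10 genes of smallest p with opposite signs passed without each single array, but IPO7, TCF25, EZR, ATP6V0E1, TM2D3 and ODC1 did not when arrays were centred on their medians (adjusted p = 0.0731, 0.22, 0.328, 0.446, 0.0512 and 0.0639), with the sign of the difference kept.

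IPO7, a nuclear import receptor, differed most. It read 6.28, 6.54 and 6.52 at 1 cGy and 6.27, 5.92 and 6.07 at 5 cGy in GM15036, and 5.69, 5.47 and 5.56 against 6.64, 6.68 and 6.87 in GM15510. It was thus −0.36 in GM15036 and 1.16 in GM15510, a difference of 1.52 (adjusted p = 3.04e-04), and the doses were apart in both lines. The other 3 IPO7 probe sets did not differ between the lines (differences 0.32, 0.18 and 0.37, adjusted p = 0.678 or more).

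TCF25, a factor of the ribosome quality control complex, read 7.93, 7.86 and 7.88 against 7.72, 7.74 and 7.77 in GM15036, and 6.95, 6.98 and 6.82 against 7.56, 7.95 and 7.76 in GM15510. It was −0.14 and 0.84 by line (adjusted p of the difference 3.04e-04). A dimmer TCF25 probe set gave −0.39 for the difference (adjusted p = 0.857).

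STT3A, the catalytic subunit that N-glycosylates proteins in the ER, read 8.07, 8.04 and 8.05 against 8.27, 8.31 and 8.26 in GM15036, and 7.62, 7.77 and 7.76 against 7.06, 7.02 and 7.14 in GM15510. The lines moved apart with no overlap of doses in either, 0.23 and −0.64 (adjusted p of the difference 0.00132). HSP90AB1, the constitutive cytosolic HSP90, read 9.48, 9.40 and 9.22 against 9.52, 9.75 and 9.63 in GM15036, and 9.97, 10.27 and 10.30 against 9.80, 9.60 and 9.38 in GM15510. It was 0.27 and −0.59 (adjusted p of the difference 0.00312). A second HSP90AB1 probe set gave the same signs, 0.15 and −1.14 (adjusted p of the difference 0.0315).

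The remaining genes of this kind were ATP6V0E1, a subunit of the proton pump (−0.18 and 0.53), EZR, the cytoskeletal linker ezrin (−0.055 and 0.82), GLOD4 (0.33 and −0.53), BLCAP (0.093 and −0.82), TM2D3 (0.10 and −0.85) and ODC1, the first enzyme of polyamine synthesis (0.070 and −0.51). Without both dim GM15510 5 cGy arrays GLOD4 (−0.76, adjusted p = 0.0524), TM2D3 (−0.73, 0.102) and ODC1 (−0.54, 0.0699) missed, and the other 7 passed. In EZR, BLCAP, ODC1 and TM2D3 the GM15036 doses overlapped, so their sign in that line is within its spread. The ATP6V0E1 probe set is cross-hybridising, and the other probe sets of ATP6V0E1 and EZR gave differences that did not pass.

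**Figure D4:**
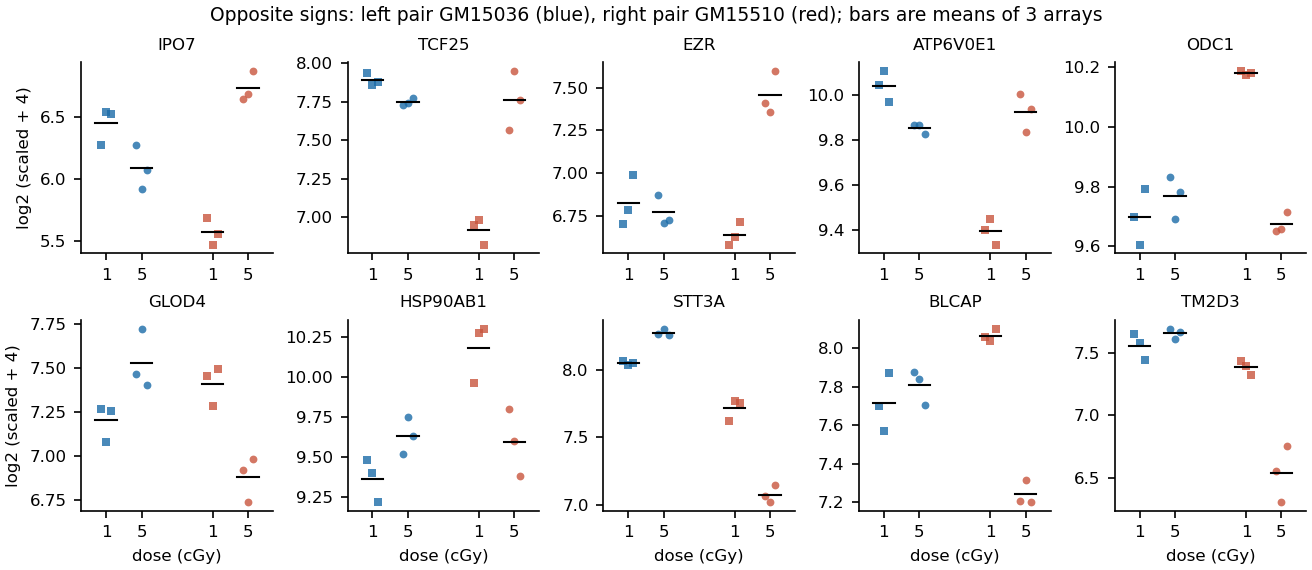
Log2 scaled signal plus 4 on each array (points, n = 3 per group) and group means (bars) at 1 and 5 cGy for the 10 genes of smallest p for the difference between lines among those with opposite signs; each panel has its own vertical range. IPO7 rises by 1.16 in GM15510 and reads −0.36 in GM15036, and STT3A has the reverse pattern (−0.64 and 0.23).

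Whether 5 cGy stood apart from the other doses was tested against the mean of 2.5, 7.5 and 10 cGy, and 715 probe sets passed (5.36%; 419 higher, 296 lower; 427 to 708 when a 1 or 5 cGy array was left out, and below by over 1.5 times without GM15036 5 cGy a (461) or b (427)). Without the dim GM15510 5 cGy arrays 468 passed. This comparison shares the 5 cGy arrays with the one against 1 cGy, so the values are set side by side and one does not support the other. Averaged over the lines, EMC7 was 0.46 above the other doses (adjusted p = 2.28e-07) and ERP44 0.64 (adjusted p = 3.58e-08). PRDX4 was 0.36 above them (adjusted p = 2.89e-06) and HSPA5 0.30 (adjusted p = 1.06e-04). Over 1 cGy the same genes were 0.44, 0.52, 0.29 and 0.30 higher. RPS24 was −0.25 (adjusted p = 5.43e-04) and TAOK3 −0.18 (adjusted p = 0.0148), against −0.38 and −0.45. For SERP1 the difference from the other doses was −0.18 (adjusted p = 0.11) and for ZNF611 0.45 (adjusted p = 6.62e-05).

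The dose profiles of these genes were not monotone and differed between the lines. In GM15036 EMC7 was 9.21 ± 0.097, 8.99 ± 0.022, 9.69 ± 0.087, 8.84 ± 0.026 and 8.93 ± 0.036 (SD, n = 3) at 1, 2.5, 5, 7.5 and 10 cGy, so 5 cGy was the highest. In GM15510 it was 9.12 ± 0.035, 9.22 ± 0.11, 9.53 ± 0.13, 9.67 ± 0.029 and 9.26 ± 0.085, with 7.5 cGy at least as high as 5 cGy. PRDX4 and ERP44 were highest at 5 cGy in GM15036 (9.19 and 9.97). In GM15510 they read 9.33 and 10.20 at 5 cGy, and 9.52 and 10.23 at 7.5 cGy. HSPA5 in GM15510 read 10.80 at 5 cGy and 10.78 at 7.5 cGy. RPS24 in GM15036 was lowest at 5 cGy (9.08 ± 0.12) and highest at 7.5 cGy (9.78 ± 0.0072), whereas in GM15510 it was highest at 1 cGy (9.92 ± 0.051) and lay between 9.48 and 9.62 at all other doses. SERP1 was highest at 1 cGy in both lines (7.40 ± 0.022 and 7.65 ± 0.076).

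**Figure D5:**
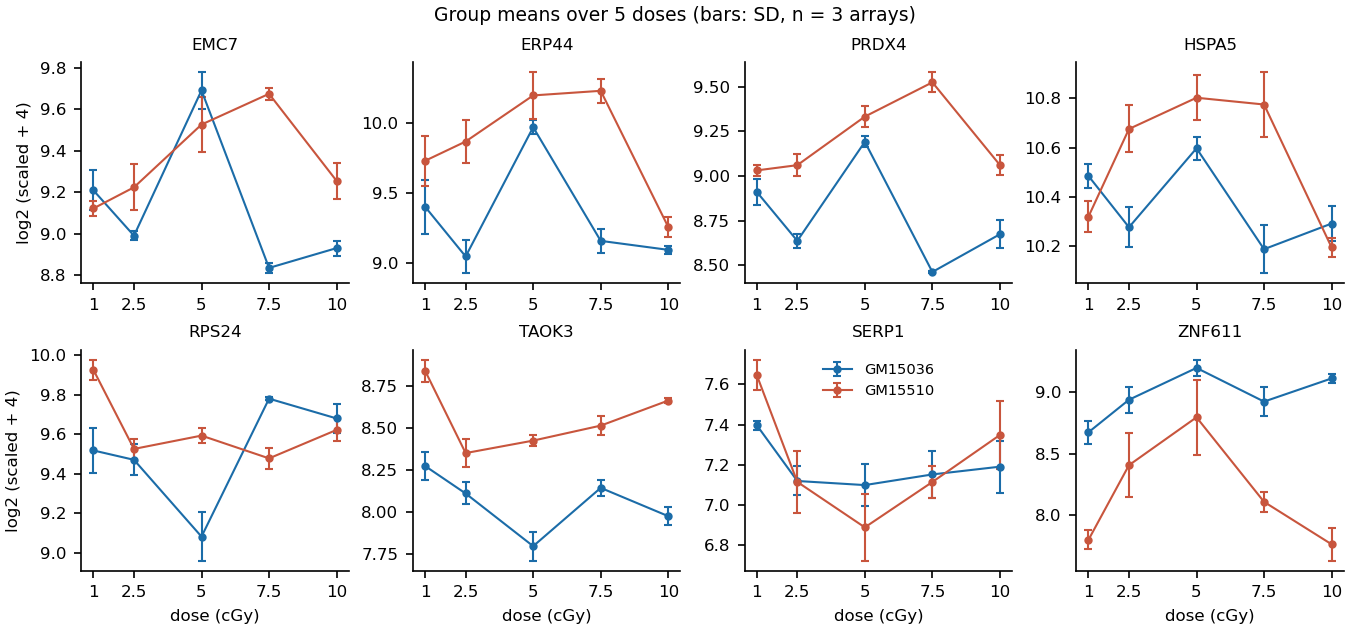
Group means of log2 scaled signal plus 4 over 1, 2.5, 5, 7.5 and 10 cGy for 8 named genes in GM15036 (blue) and GM15510 (red), with SD bars (n = 3 arrays). In GM15036 EMC7 peaks at 5 cGy (9.69) and RPS24 dips there (9.08), while in GM15510 EMC7 reaches 9.53 at 5 cGy and 9.67 at 7.5 cGy.

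The 6 genes named for the size of their difference from the other doses were lower at 5 cGy and dim, so that the size depends on the 4 added before the log. They were MYBPC2 (−1.24, adjusted p = 0.00354), TIMM22 (−1.20, cross-hybridising), LSM4 (−1.16), PPARD (−1.10), FEZ2 (−1.04) and SPRY4 (−0.998). None passed against 1 cGy. With 1 added in place of 4 MYBPC2 was at −1.83, and with 16 at −0.59, and all 6 passed either way. MYBPC2 read 4.24, 3.26 and 3.98 at 1 cGy and 2.38, 3.32 and 2.54 at 5 cGy in GM15036, and 3.90, 3.91 and 3.34 against 2.60, 2.74 and 2.51 in GM15510. FEZ2 missed without GM15036 5 cGy a (0.171) or c (0.155), GM15510 1 cGy 1 (0.0511) or GM15510 5 cGy 1 (0.216). Without the dim GM15510 5 cGy arrays TIMM22 was at −0.56 (adjusted p = 0.346).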

How the data were processed

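The authors' deposited table holds MAS5 intensities on a linear scale, per the submitters' processing notes, which give no version. The arrays differed up to 7.91 times in trimmed mean and were not yet scaled. Each array was scaled here so that its mean between the 2nd and 98th percentile equalled 50.9, and log2 (scaled intensity + 4) was analysed. Of 22283 probe sets, 68 controls and the 40% with the lowest mean were left out, and 13329 were tested. The platform table gave 1 gene symbol to 19071 probe sets, several to 1043 and none to 2169, and 19059 were matched to RefSeq by gene ID. A fit of 10 group means over 30 arrays with limma 3.58.1 (R 4.3.3; eBayes with an intensity trend, 20 residual degrees of freedom) gave each contrast, and p-values were adjusted by Benjamini-Hochberg over all tested probe sets, with a threshold of 0.05 for a call. The change across lines is the mean of both lines' changes. Every adjusted p in the text comes from this limma fit unless an exact test is named. A negative sign or "lower" means lower at 5 cGy.

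Named genes were the 12 highest and 12 lowest called probe sets with 1 symbol, the same sign and no overlap in either line; the 10 of smallest p for the difference between lines with opposite signs; up to 4 called members of each of 31 lists; a panel of 20 genes, of which 1 is not reported here; and the 6 farthest from the other doses. The genes of smallest p with an ordinary probe set and no overlap were added after their values were seen. Lists use 1 probe set per gene, the brightest, with those ending in _s_at or _x_at (the cross-hybridising design) only where there is no other. Members and lists were chosen with earlier results of these data known. Whether replicate labels pair arrays across doses is not stated, and the main fit used no pairing. Deviations of same-labelled arrays correlated at −0.00061 to 0.0971, which cannot show that they were unpaired. Alternatives were other scalings, pseudocounts, filters, variance models, array subsets, covariates, a block and the omission of each array. The last 3, without _x_at probe sets, with the Alu control as a covariate and without the dim GM15510 5 cGy arrays, were chosen after seeing the data. The procedure was tested on simulated data. No genome of the array's design was used, and promoter windows come from RefSeq on GRCh38.p14.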

Additional observations from a re-analysis of the deposited data

Results flagged for a closer look

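The change from 1 to 5 cGy differed between the lines by the test of the difference itself for 126 probe sets. Those named with opposite signs had a change in GM15510 minus that in GM15036 of 1.52 (IPO7), 0.981 (TCF25), 0.873 (EZR) and 0.713 (ATP6V0E1), and of −0.953 (TM2D3), −0.914 (BLCAP), −0.87 (STT3A), −0.86 (GLOD4), −0.857 (HSP90AB1) and −0.575 (ODC1). The GM15510 5 cGy group holds the 2 dimmest of the 12 arrays, and 34 of such calls were made without them.

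The Alu control probe set, which lies outside the tested genes, was 0.449 higher on the log2 scale at 5 cGy than at 1 cGy. Its highest reading, 13.79, was on GM15510 5 cGy array 1, the dimmest of the 12.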

How the results depend on the processing

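All 356 called probe sets kept their sign under every alternative that tested them except median centring, where 340 did. In several alternatives all 13329 tested probe sets kept their sign. Among these were no filter, no intensity trend, the 12 arrays alone and the replicate block. Kept signs there say nothing about the called probe sets. Median centring called 919 across lines (23 higher, 896 lower, 888 with the same sign), 2 in GM15036, 1967 in GM15510, 17 for the difference and 139 against the other doses, and it turned COPB1 (−0.038), TNFRSF10B (−0.020) and HSP90AA1 (−0.0041). Centring after scaling gave 54 higher, 268 lower, 2 in GM15036, 67 for the difference and 475 against the other doses. Without an intensity trend 186 were called (104 higher, 82 lower, 173 same sign), 5 in GM15036 and 25 for the difference, and with array weights 621 (297, 324, 583), 165 and 260. An additive model of the 12 arrays, in which line differences add to the error, called 109 (71 higher, 38 lower). Brightness as a covariate left 134 (79, 55, 124 same sign) and 222 in GM15510, the ACTB ratio 103 (58, 45, 99), 10 in GM15036 and 272 in GM15510, and the Alu control 119 (63, 56, 112), 162 in GM15510 and 57 for the difference. Without the dim GM15510 5 cGy arrays 136 were called (70, 66, 124), 34 in GM15036, 117 in GM15510, 34 for the difference and 468 against the other doses. That setting leaves 1 array in the group, assumed to vary like the others. Without _x_at probe sets 115 were higher. The GM15036 count was 35 with a stricter filter on low values, 12 from the 12 arrays alone and 50 without the 5 dimmest arrays, and the count against the other doses was 437 with the GAPDH ratio. Leaving out each array gave 205 to 386 called, 118 to 212 higher, 86 to 174 lower, 188 to 356 with the same sign, 2 to 32 in GM15036, 285 to 605 in GM15510, 41 to 165 for the difference and 427 to 708 against the other doses. The causes were not tested.

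The replicate block treats same-labelled arrays of a line as paired, which the labels do not state. With it 336 were called across lines (181 higher, 155 lower), 112 for the difference and 662 against the other doses. Precision is limited by 3 arrays per group.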
